A study of Rattus norvegicus with 35 samples.

Results

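The odour transduction cascade of the olfactory sensory neuron was followed here in rat olfactory epithelium at 3 ages, through the 10 genes Gnal, Adcy3, Cnga2, Cnga4, Cngb1, Gng13, Omp, Pde1c, S100a5 and Cnga3. A probe was taken when the array named it with one of these symbols, or when its description gave that symbol in brackets. This selected 14 of the 41012 probes of the array, for 9 of the 10 genes. Omp had 2 probes, Gnal 3, Cngb1 2 and Pde1c 2, and Adcy3, Cnga2, Cnga4, S100a5 and Cnga3 had 1 each. No probe met the rule for Gng13. A transcript that the array describes as similar to a G protein gamma 13 subunit, LOC682159, is given separately and was not counted.

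Odorants bind receptors on the cilia of these neurons, and the receptors act through Golf, a G protein whose alpha subunit is encoded by Gnal and whose gamma subunit is Gng13. Golf switches on adenylyl cyclase 3 (Adcy3), and the cAMP it makes opens a cyclic nucleotide-gated channel built of Cnga2, Cnga4 and Cngb1. The calcium that enters opens chloride channels and, bound to calmodulin, helps to end the response, in part through the phosphodiesterase Pde1c. Omp, olfactory marker protein, and S100a5, a calcium-binding protein, are known as marks of mature sensory neurons. Cnga3 belongs to a small separate class of olfactory neurons that signal with cGMP.

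The samples were RNA of the olfactory epithelium of Brown Norway rats, hybridized to 35 one-colour Agilent whole rat genome arrays. The 19 newborn pups, 3 to 5 days old and of unstated sex, came from 4 litters, with 4 pups in L1 and 5 each in L2, L3 and L4, and gave 1 array each from one side of the nose. The 4 adult rats (9 weeks) and 4 old rats (22 months) were male and gave 2 arrays each, A and B, from the left and right epithelium. Which side A is was not stated, and the old rats had lived in the animal house from a young age. A rat is the replicate, and its arrays were averaged. The p values of the changes in level measure the spread between rats within a litter or an age group. They leave out the spread between litters. Pups of a litter share their dam.

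The expression level of a probe is given as the log2 of its background-subtracted intensity over the median of its array, so that a step of 1 is a 2-fold difference. A level says nothing of the amount of one transcript against another, since probes differ in brightness. Of the 14 probes, 13 gave a hybridization signal above background on enough arrays of every group to be tested, together with 23668 probes in all. A change is called here when the adjusted p of limma, fitted over all 23668, was under 0.01.

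The probes that the results turn on most are shown as the array carries them, 5′ to 3′, each 60 bases long, so that the transcript measured can be looked up. Positions are those of the scanner files, in build rn3. Probe 2 of Omp lies at chr1:155467292-155467351 on the minus strand, Adcy3 at chr6:27203254-27203313 and Cnga4 at chr1:163236259-163236318, both on the plus strand. The probes of Cngb1 lie at chr19:10255150-10255209 for probe 1 and chr19:10214209-10214268 for probe 2, both on the plus strand, and those of Pde1c at chr4:85231603-85231662 for probe 1 and chr4:85180660-85180719 for probe 2, on the minus strand. The S100a5 probe covers chr2:182841924-182843546 on the plus strand, a span of 1623 bases, and so is split over the genome.
Omp probe 2: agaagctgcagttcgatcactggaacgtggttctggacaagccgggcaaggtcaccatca
Adcy3: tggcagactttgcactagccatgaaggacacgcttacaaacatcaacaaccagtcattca
Cnga4: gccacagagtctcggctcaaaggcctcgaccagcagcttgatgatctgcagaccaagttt
Cngb1 probe 1: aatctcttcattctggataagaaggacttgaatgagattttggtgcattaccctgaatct
Cngb1 probe 2: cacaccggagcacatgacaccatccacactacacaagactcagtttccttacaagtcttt
Pde1c probe 1: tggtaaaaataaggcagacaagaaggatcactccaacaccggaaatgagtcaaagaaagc
Pde1c probe 2: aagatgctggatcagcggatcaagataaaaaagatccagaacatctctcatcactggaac
S100a5: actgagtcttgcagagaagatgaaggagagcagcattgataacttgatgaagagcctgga

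The remaining probes lie at chr1:155465532-155465591 on the minus strand for Omp probe 1, which the array describes by a gene record of olfactory marker protein, and at chrX:157632756-157632815 on the minus strand for Cnga2. Those of Gnal lie on the plus strand at chr18:63809949-63810008, chr18:63716372-63716630 and chr18:63805929-63808861, and that of Cnga3 at chr9:36203350-36203409 on the plus strand. The array describes probe 2 of Cngb1 as the mRNA of a glutamic-acid rich protein, a product that the same gene is known to make beside the channel subunit. Probe 1 of Cngb1 is described as the channel subunit itself.

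Cnga2, Cnga4 and the Cngb1 probe described as the channel subunit were higher in adult than in newborn rats. The Cngb1 probe for the glutamic-acid rich protein was higher in newborn rats. The promoters of these 3 channel genes are shown as well, from RefSeq on build GRCr8. Windows of 250 bases before to 50 after the start of the gene were given for 8 of the 10 genes, all but Omp and Adcy3. They were searched for CCCNNGGG, the core of the sites that Olf/Ebf factors of these neurons are known to bind, and for TAATTA, a homeodomain core. Both motifs read the same on both strands. CCCNNGGG stood in 5 of the 8 windows and in 4160 of all 33469 windows (12.4%), and TAATTA in 0 of the 8 and in 1793 of all (5.36%). The 5 were Cnga2, Cnga4, Cngb1, Gng13 and Pde1c, and in Gng13 there were 2 overlapping matches. Cnga4 had a further match 7 bases after the start, and the match of Pde1c lay 39 bases after it. A match is only a run of letters, and no binding was measured. Whether the window of Cngb1 belongs to the transcript of the channel subunit or to that of the glutamic-acid rich protein was not tested. The 200 bases before the start, all on the plus strand, are printed for the channel genes with CCCNNGGG in capitals, for Cnga2 at chrX:154741566-154741765, for Cnga4 at chr1:169164006-169164205 and for Cngb1 at chr19:9732446-9732645. The matches printed begin 97, 157 and 197 bases before the start.
Cnga2: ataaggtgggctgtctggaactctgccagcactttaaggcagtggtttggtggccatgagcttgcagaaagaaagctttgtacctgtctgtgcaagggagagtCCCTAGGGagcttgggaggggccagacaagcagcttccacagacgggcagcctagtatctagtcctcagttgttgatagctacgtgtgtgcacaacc
Cnga4: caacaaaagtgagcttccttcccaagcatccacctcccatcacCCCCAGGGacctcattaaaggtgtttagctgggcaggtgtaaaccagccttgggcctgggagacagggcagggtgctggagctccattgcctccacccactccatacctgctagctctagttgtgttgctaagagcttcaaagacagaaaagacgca
Cngb1: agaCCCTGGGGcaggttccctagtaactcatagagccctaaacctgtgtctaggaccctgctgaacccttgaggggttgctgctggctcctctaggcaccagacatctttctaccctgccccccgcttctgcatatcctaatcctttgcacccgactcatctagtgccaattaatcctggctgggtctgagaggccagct

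The arrays of the 3 ages were not processed alike, and this touches the comparisons with adult rats. There were 10 slides and 5 scan days, and the adult arrays filled the first 2 days by themselves, L1 and the old rats the next, and L2 to L4 the last 2. The median intensity ran from 88.8 to 179 on adult arrays, from 46.0 to 96.5 on newborn arrays and from 40.2 to 59.8 on old arrays. In the 166 probes with a mean level of 10 to 13, newborn rats exceeded adult rats by a median of 1.22 (log2) and old rats by 0.27, and adult minus old was −0.998. In the 6324 probes at levels of 0 to 2 these medians were −0.02, −0.04 and 0.00. The changes of the member probes were therefore also set against the median change of all tested probes within 0.5 of their own level, which the plot of changes shows for each and the text gives where it matters. Values with quantile normalization, which forces all arrays to the same distribution, are given in the same way. The changes of other genes were not set against probes of like level. Age, scan day and slide cannot be told apart, except that L1 and the old rats shared a scan day.

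Newborn rats had the lower level at 12 of the 13 probes, against adult and against old rats alike, and every pup lay below every adult and every old rat at those 12. The exception was probe 2 of Cngb1, which was higher in newborn rats. Against adult rats all 13 probes, of 8 genes, were called. Of all tested probes 65.8% were called in that comparison, 26.2% as lower and 39.6% as higher in newborn rats. Lower levels without overlap between rats were found in 14.7% of all probes. A call with a fold of at least 5 and a lower newborn level was made for 5 of the 13 and for 0.744% of all probes. Against old rats all 13 were again called, 12 as lower, where the shares over all probes were 59.4% in either direction, 31.7% lower and 27.7% higher. No overlap and a lower newborn level were found in 17.6% of all probes, and 5 of the 13 were lower by at least 5-fold, against 1.06% of all.

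The median log2 change of the 13 probes was −2.06 against adult and −2.25 against old rats, where the median over all tested probes was 0.16 and −0.04. Over probes of like level the medians became −2.39 and −2.29, and with quantile normalization −2.55 and −2.22. The comparisons share the newborn rats and are not independent. In whole tissue fewer neurons and less RNA in each neuron cannot be told apart.

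**Figure D1:**
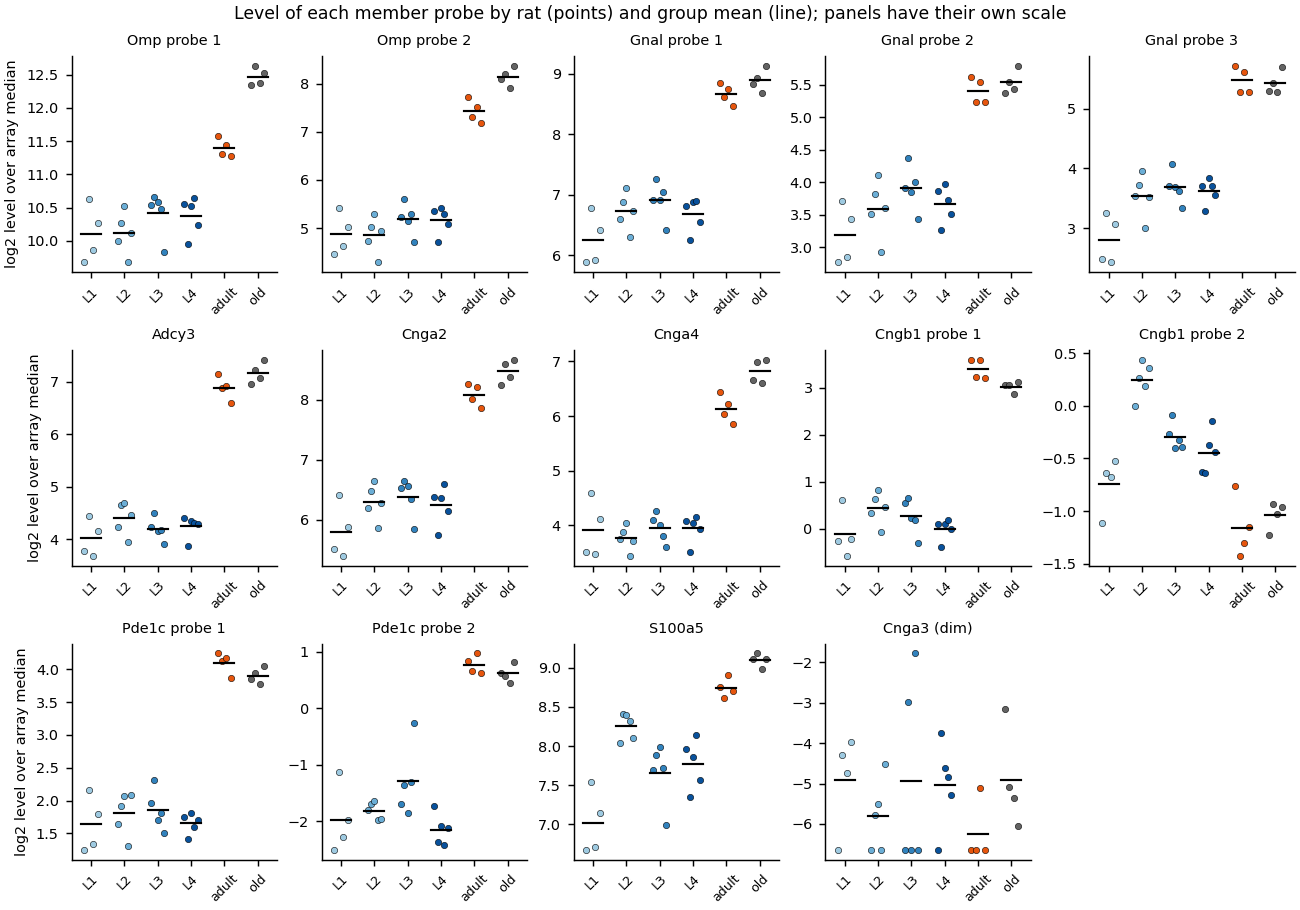
Level of each of the 14 probes (y axis, log2 of intensity over the array median, with a scale of its own in each panel) in each rat, by litter L1 to L4, adult and old. Points are rats and lines are group means, and at 12 probes all 19 pups lie below all adult and old rats, while Cngb1 probe 2 runs the other way and Cnga3 was mostly below background.

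The receptor's G protein came first in the cascade. At Gnal probe 1 the pups ranged from 5.88 to 7.26 with a median of 6.78. The 4 adult rats were at 8.85, 8.62, 8.74 and 8.46, and the 4 old rats at 8.82, 8.93, 8.67 and 9.13. Adult and old rats overlapped, and all pups were well below them. The log2 change was −2.03 (SE 0.16, 4.07-fold, adjusted p = 2.24e-11, limma) in newborn against adult rats. Against old rats it was −2.25 (SE 0.16, 4.76-fold, adjusted p = 6.06e-12). Adult and old rats differed by −0.22 (SE 0.20, adjusted p = 0.346).

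The other probes of Gnal moved by almost the same amount. Probe 2 had means of 3.61 over the pups (SD 0.43, n = 19), 5.41 in adult rats (SD 0.21, n = 4) and 5.54 in old rats (SD 0.18, n = 4). Probe 3 had means of 3.45 (SD 0.44), 5.47 (SD 0.23) and 5.42 (SD 0.19). Their log2 changes were −1.82 and −2.06 against adult rats and −1.95 and −2.01 against old rats. The standard errors of the 3 probes ran from 0.15 to 0.18, and the differences between the probes were not tested.

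LOC682159, the transcript similar to G protein gamma 13, was among the bright signals of the array, with means of 9.89 over the pups (SD 0.37, n = 19), 10.36 in adult rats (SD 0.17, n = 4) and 11.52 in old rats (SD 0.11, n = 4). Its log2 change was −0.49 (SE 0.17, adjusted p = 0.0128, limma) in newborn against adult rats, where pups and adults overlapped, and −1.24 (adjusted p = 2.88e-08) with quantile normalization. In newborn against old rats it was −1.64 (SE 0.17, adjusted p = 7.60e-09).

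Adcy3, the enzyme that makes the cAMP signal, had levels of 3.68 to 4.70 in the pups, with a median of 4.23. The adult rats were at 7.14, 6.88, 6.92 and 6.60 and the old rats at 6.95, 7.22, 7.07 and 7.42. All pups lay far below the other rats, and adult and old rats overlapped. The log2 change was −2.67 (SE 0.14, 6.37-fold, adjusted p = 1.68e-14, limma) against adult rats and −2.95 (SE 0.14, 7.72-fold, adjusted p = 4.12e-15) against old rats.

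The 3 subunits of the channel were all lower in the pups. Cnga2, which can form a channel by itself, had levels of 5.40 to 6.65 in the pups (median 6.35), 7.86 to 8.26 in adult rats and 8.26 to 8.67 in old rats. Its log2 change was −1.90 (SE 0.16, adjusted p = 1.91e-10, limma) against adult and −2.29 (SE 0.16, adjusted p = 1.17e-11) against old rats. For Cnga4, which modulates the channel, the pups ranged from 3.43 to 4.58 with a median of 3.92. The adult rats were at 6.43, 6.03, 6.22 and 5.86, and the old rats at 6.67, 6.98, 6.61 and 7.03. Every old rat was above every adult rat and every adult rat above every pup. The log2 change of Cnga4 was −2.24 (SE 0.16, 4.73-fold) against adult and −2.93 (SE 0.16, 7.63-fold) against old rats.

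Probe 1 of Cngb1, the beta subunit, had the largest change of the 13 probes in newborn against adult rats. The pups ranged from −0.58 to 0.83 with a median of 0.20. The adult rats were at 3.58, 3.22, 3.60 and 3.20 and the old rats at 3.05, 3.05, 2.86 and 3.11. Here the adult rats lay above the old rats without overlap. The log2 change was −3.25 (SE 0.17, 9.53-fold, adjusted p = 2.16e-14, limma) against adult and −2.87 (SE 0.17, 7.31-fold, adjusted p = 3.51e-13) against old rats.

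Probe 2 of Cngb1, for the glutamic-acid rich protein, went the other way. The pups ranged from −1.11 to 0.44 with a median of −0.37, the adult rats were at −0.77, −1.43, −1.31 and −1.15, and the old rats at −1.23, −0.93, −1.03 and −0.96. The pups overlapped both groups. Its log2 change was 0.86 (SE 0.11, 1.81-fold, adjusted p = 1.68e-07, limma) against adult and 0.73 (SE 0.11, 1.66-fold, adjusted p = 2.40e-06) against old rats. It was above background on all 35 arrays, but the 2 arrays of adult rat 13 differed by 1.34 (−0.09 and −1.44). It moved less in the litter that shared a scan day with the old rats, as given below.

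Pde1c, the calcium-dependent phosphodiesterase that removes cAMP, was lower in the pups at both probes. At probe 1 the pups ranged from 1.25 to 2.31 (median 1.74), the adult rats were at 4.24, 4.13, 4.17 and 3.86, and the old rats at 3.85, 3.95, 3.77 and 4.05. Adult and old rats overlapped, and all pups lay below both. The log2 changes were −2.36 (SE 0.14, 5.13-fold) against adult and −2.16 (SE 0.14, 4.48-fold) against old rats. Probe 2 was above background on 16 of the 19 newborn arrays and on all 8 adult and 8 old arrays. Its means were −1.80 over the pups (SD 0.53), 0.77 in adult rats (SD 0.16) and 0.61 in old rats (SD 0.15), with log2 changes of −2.58 (SE 0.20) and −2.42 (SE 0.20).

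Omp marks the mature neurons that run this cascade, and its probes differed in how much they moved. At probe 1 the pups ranged from 9.67 to 10.66 with a median of 10.26, the adult rats were at 11.58, 11.31, 11.44 and 11.28, and the old rats at 12.34, 12.63, 12.37 and 12.52. At probe 2 the pups ranged from 4.29 to 5.61 with a median of 5.09, the adult rats were at 7.72, 7.31, 7.52 and 7.19, and the old rats at 8.10, 8.19, 7.91 and 8.37. Both probes put the groups in the same order without overlap.

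The log2 change of Omp in newborn against adult rats was −1.15 (SE 0.16, 2.21-fold, adjusted p = 4.11e-07, limma) at probe 1 and −2.41 (SE 0.17, 5.30-fold, adjusted p = 4.01e-12) at probe 2. Probe 1 was one of the brightest spots, reaching 76.3% of the brightest signal on an array, and the 89 probes of like level had a median log2 change of 1.22 in that comparison, against 0.40 for probe 2. Over probes of like level the changes were −2.37 and −2.81. In newborn against old rats the probes gave −2.21 (4.63-fold) and −3.12 (8.66-fold), and −2.50 and −3.09 over probes of like level. The difference between the probes was not tested.

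S100a5 was the least changed of the genes measured by 1 probe. The pups ranged from 6.68 to 8.41 with a median of 7.87, the adult rats were at 8.75, 8.62, 8.91 and 8.70, and the old rats at 9.12, 9.18, 8.98 and 9.11. No groups overlapped, though the highest pup lay close to the lowest adult. The log2 change was −1.07 (SE 0.15, 2.09-fold, adjusted p = 8.02e-07, limma) against adult and −1.42 (SE 0.15, 2.68-fold, adjusted p = 1.14e-08) against old rats. Against adult rats it was −1.69 (3.22-fold) with quantile normalization and −1.72 over probes of like level.

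Cnga3, the channel subunit of the separate cGMP neurons, could not be measured. It was above background on 1 of the 19 newborn arrays, in L3, on 0 of the 8 adult arrays and on 1 of the 8 old arrays. No fold is given, since every group was at or below background.

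**Figure D2:**
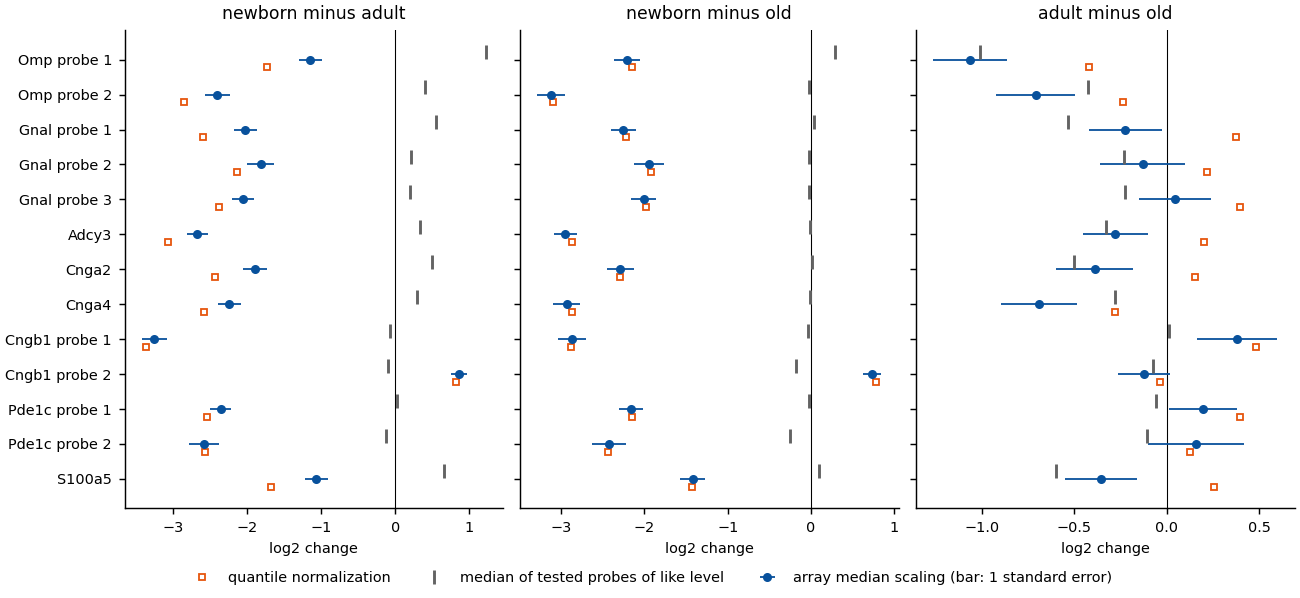
Log2 change of the 13 tested probes in newborn minus adult, newborn minus old and adult minus old rats (x axes), with filled points for array median scaling and bars of 1 standard error, open squares for quantile normalization and vertical ticks for the median of tested probes of like level. In the first 2 panels all probes but Cngb1 probe 2 lie to the left of 0 and of their ticks, and in the last the open squares lie to the right of most filled points.

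The contrast of L1 with the old rats lay within 1 scan day. Here 12 of the 13 probes were called, all lower in L1, and all 12 without overlap between rats. Over all probes 47.8% were called, 30.1% as lower, and 35.8% were lower without overlap. A lower level by at least 5-fold was called for 10 of the 13 and for 1.53% of all probes. The median log2 change of the 13 was −2.61, against −0.14 for all probes, and ran from −3.26 for Omp probe 2 (SE 0.22) to −2.08 for S100a5 (SE 0.19) among the 12. Cngb1 probe 2 was the exception, with a log2 change of 0.30 (SE 0.14, adjusted p = 0.0679, limma).

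Between adult and old rats few of the 13 probes were called, and age and scan day cannot be told apart there. Only Omp and Cnga4 were called, with 3 of the 13 probes, all lower in adult rats, where 46.8% of all probes were called, 31.6% as lower and 15.3% as higher. The share of the members called was thus below that of all probes. Adult rats lay below old rats without overlap at 4 of the 13 (Omp probes 1 and 2, Cnga4 and S100a5), against 38.9% of all probes, and above them at 1 (Cngb1 probe 1), against 18.7%. The log2 change was −1.06 for Omp probe 1 (SE 0.20, adjusted p = 7.55e-05, limma), −0.71 for probe 2 (SE 0.22, adjusted p = 0.00683) and −0.69 for Cnga4 (SE 0.20, adjusted p = 0.00565). The remaining 10 lay between −0.39 for Cnga2 and 0.38 for Cngb1 probe 1.

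These calls depended on the scale. The bright probes as a whole were lower in adult arrays, and the change over probes of like level was −0.05 for Omp probe 1, −0.28 for Omp probe 2 and −0.41 for Cnga4. With quantile normalization limma called 0 of the 13, while 5 had an unadjusted p under 0.05, and the log2 changes became −0.42 for Omp probe 1, −0.24 for probe 2 and −0.28 for Cnga4. S100a5 (−0.35, adjusted p = 0.119) was called when only adult and old rats were fitted (adjusted p = 0.00667), and Cngb1 probe 1 with normexp followed by quantile normalization (0.49, adjusted p = 0.000753). Gapdh, a common control gene, changed in adult against old rats by −0.59 and −0.62 at its 2 probes with array median scaling, and by 0.00 and −0.03 with quantile normalization. The probes of Hprt, the internal reference of the study's PCR, changed by −0.58 to 0.32.

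A ratio taken within an array does not depend on the factor by which the array is scaled, so each gene was also set against Omp probe 1 of the same array. The 4 litter means, 4 adult rats and 4 old rats were compared by exact two-sided permutation tests, for which 4 against 4 cannot give a p below 0.0286. Over 7 genes and 3 comparisons this made 21 tests. How many of all probes would pass the same tests was not counted. The counts of ratios here and below thus have no share to be set against. Relative to Omp, 6 of the 7 genes were lower in newborn than in adult rats without overlap, each with an adjusted p of 0.0353 in the exact test. The largest difference was −2.11 for Cngb1 probe 1 and the smallest of the 6 was −0.75 for Cnga2. S100a5 differed by 0.08 with overlap. A ratio keeps any shift of the scale with level, and probes like Omp probe 1 in level shifted by a median of 1.22. Over probes of like level Omp probe 1 changed by −2.37, Cnga2 by −2.39 and Pde1c probe 1 by −2.38. Cnga4 changed by −2.53, Gnal probe 1 by −2.58, Adcy3 by −3, Cngb1 probe 1 by −3.18 and S100a5 by −1.72. Ratios over probes of like level were not tested. With normexp background correction followed by quantile normalization 4 of the 7 passed, Adcy3 had the largest difference (−1.15), and Cngb1 probe 1 (−0.58) and Pde1c probe 1 (−0.29) overlapped.

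Against old rats the genes split. Adcy3 (−0.74), Cnga4 (−0.72) and Cngb1 probe 1 (−0.66) were lower relative to Omp in newborn rats and S100a5 was higher (0.79), each without overlap. Gnal probe 1 (−0.04), Cnga2 (−0.08) and Pde1c probe 1 (0.05) overlapped. With normexp and quantile normalization Cngb1 probe 1 turned to 0.36 and Pde1c probe 1 became 0.47, both higher in newborn rats without overlap. In adult against old rats all 7 were higher relative to Omp, by 0.37 for Cnga4 to 1.44 for Cngb1 probe 1. Cnga4 overlapped with quantile normalization (0.14), and also with normexp before it (0.32). Omp probe 1 itself changed by −1.06 in adult against old rats, where the median over all tested probes was −0.19. A typical probe was thus also higher relative to Omp. Probes like Omp probe 1 in level had a median of −1.01. Over probes of like level Omp probe 1 changed by −0.05 and Cnga4 by −0.41.

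The choice of the Omp probe turned some of these directions. Relative to Omp probe 2, an alternative chosen after seeing the data, 5 of the 7 genes had a higher ratio in newborn than in adult rats, and the differences became 0.38 for Gnal probe 1, 0.51 for Cnga2 and 1.34 for S100a5. Cngb1 probe 1 kept a lower ratio (−0.85). Against old rats all 7 ratios were then higher in newborn rats, 4 of them without overlap. In adult against old rats 5 of the 7 then passed, and Cnga4 (0.02) and S100a5 (0.35) overlapped. Changing the Omp probe shifts all 7 genes by the same amount, so their order stays the same by construction, with Cngb1 lowest and S100a5 highest in newborn against adult rats.

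**Figure D3:**
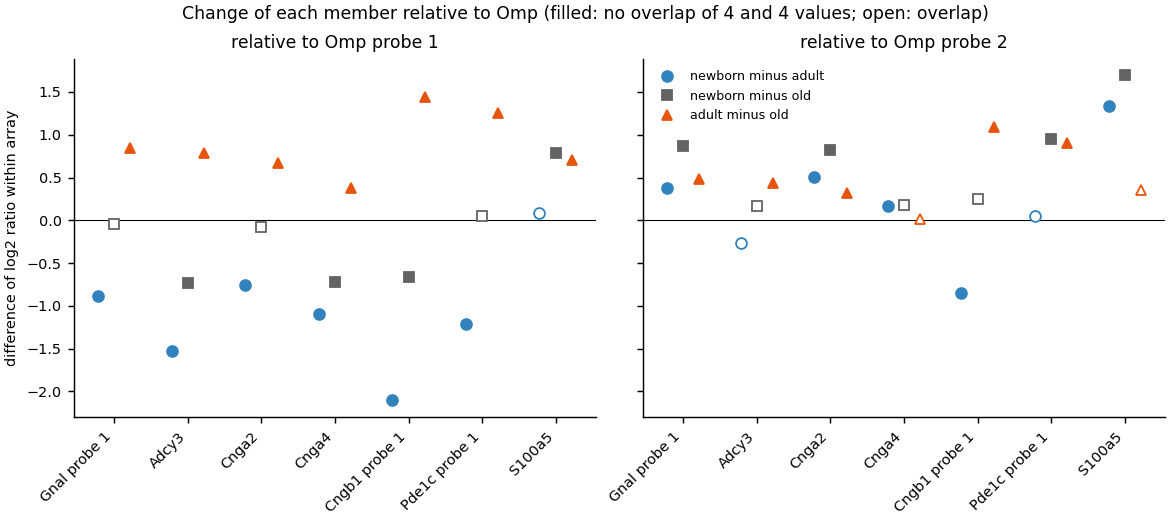
Difference of the log2 ratio of each gene to Omp within an array (y axis), relative to Omp probe 1 (left) and probe 2 (right), in newborn minus adult, newborn minus old and adult minus old rats. Filled symbols mark 4 against 4 values without overlap, and Cngb1 probe 1 is lowest and S100a5 highest in newborn minus adult rats in both panels.

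Pups also differed from each other, and the members moved together when they did. Over the 19 pups, the correlation with Omp probe 1 was r = 0.86 for Gnal probe 1 (rho 0.82), 0.87 for Cnga2 (rho 0.88), 0.89 for Cnga4 (rho 0.89), 0.71 for Adcy3 (rho 0.63) and 0.75 for Pde1c probe 1 (rho 0.68). In these 5 the adjusted p was at most 0.00118 for r and 0.00705 for rho in permutation tests over 11 probes. Gnal probes 2 and 3 had r = 0.88 and 0.75 (rho 0.79 and 0.70). Cngb1 probe 1 had r = 0.66 (rho 0.66, permutation adjusted p = 0.00373 and 0.00421). S100a5 (r = 0.46, rho 0.34, permutation adjusted p = 0.0596 and 0.174) and Pde1c probe 2 (r = 0.17, rho 0.34, permutation adjusted p = 0.525 and 0.174) did not pass. The median r of all 23666 other probes with Omp probe 1 over the pups was 0.24. All values of a pup share the scaling of its array, whose part in these correlations was not tested beyond a second scaling. With quantile normalization r was 0.81 for Gnal probe 1, 0.84 for Gnal probe 2, 0.60 for Gnal probe 3 and 0.76 for Cnga2. It was then 0.86 for Cnga4, 0.61 for Adcy3, 0.77 for Pde1c probe 1, 0.50 for Cngb1 probe 1 and 0.13 for S100a5.

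Litters differed in level, so the correlations were repeated with each pup centred on the mean of its litter. They were then 0.97 for Gnal probe 1 and Cnga2, 0.93 for Cnga4, 0.90 for Adcy3 and Cngb1 probe 1, 0.87 for S100a5 and 0.84 for Pde1c probe 1. With quantile normalization they ran from 0.80 for S100a5 to 0.98 for Gnal probe 1. The median over all probes was 0.35 with array median scaling. Cngb1 probe 2 had r = 0.15 before and 0.62 after centring (permutation adjusted p = 0.0152 within litters), and Pde1c probe 2 had 0.10 after it. Within litters 10 of the 11 probes had an adjusted p under 0.05, and 8 of the 11 without centring. How many of all probes would pass the same tests was not counted, so these counts have no share to be set against. Without L1 rat 9 and L2 rat 24, the pups farthest from the median of Omp, r over the uncentred pups was 0.83 for Gnal probe 1, 0.85 for Cnga2, 0.86 for Cnga4, 0.62 for Adcy3, 0.64 for Cngb1 probe 1, 0.63 for Pde1c probe 1 and 0.55 for S100a5. Pups of 1 litter are siblings, and their slides follow the litters closely.

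**Figure D4:**
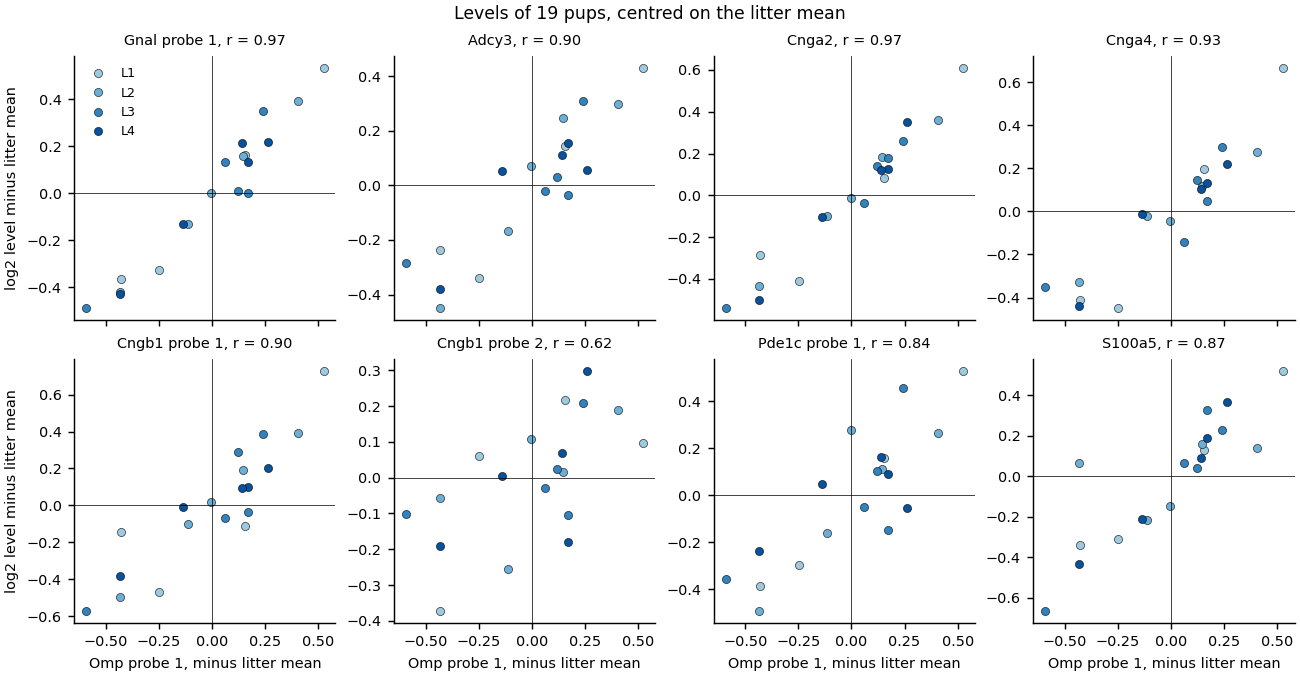
Level of 8 probes (y axes, log2) against Omp probe 1 (x axes, log2) in the 19 pups, each minus the mean of its litter, with r in each title and litters by shade. The points run along a line for Gnal probe 1 and Cnga2 (r = 0.97) and scatter widely for Cngb1 probe 2 (r = 0.62).

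Among the litters 3 of the 13 probes were called by the F test of limma, where 36.2% of all probes were. They were S100a5, Gnal probe 3 and Cngb1 probe 2. In these the SD of the litter means exceeded the SD within litters. It was 0.51 against 0.33 for S100a5, 0.41 against 0.31 for Gnal probe 3 and 0.41 against 0.19 for Cngb1 probe 2. The litter means of S100a5 in L1 to L4 were 7.02 (SD 0.41, n = 4), 8.25 (SD 0.17, n = 5), 7.66 (SD 0.39, n = 5) and 7.78 (SD 0.32, n = 5), with an adjusted p of 7.66e-05. Its pups of L2 lay between 8.04 and 8.41 and did not overlap with those of L1, which ended at 7.54. On the slides that litters shared, the pup of L3 was lower than that of L2 by −0.33 and the pup of L4 was higher than that of L3 by 0.44.

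In the same order Gnal probe 3 had litter means of 2.81, 3.55, 3.69 and 3.62 (adjusted p = 0.00132, limma), and this call was lost with the slide as a random block (adjusted p = 0.0289) or the scan day (adjusted p = 0.0584). For Cngb1 probe 2 the means were −0.74, 0.25, −0.29 and −0.44 (adjusted p = 1.26e-05, limma). This call was lost with the rat as a random block (adjusted p = 0.0159, limma). At this probe the highest litter, L2, and the lowest litter, L1, did not overlap. On a shared slide the pup of L3 was lower than that of L2 by −0.59. L1 alone was scanned apart from the other litters.

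The spread between the sides of the nose was of a size like that between rats, though the measures are not alike. The SD between sides is for single arrays. The SD between rats is for averages of the arrays of a rat, and so holds part of the spread between sides. Each side had its own array, so its spread also holds that of the arrays. Over the 13 probes the SD between the sides of a rat had a median of 0.16 in adult and 0.14 in old rats, and the SD between rats had a median of 0.21 and 0.18. The SD between rats was the larger for 8 of the 13 probes in adult and 9 of the 13 in old rats.

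Other genes of the pathway behaved in part like the members. Of 18 genes that help or end transduction, 16 had a probe and 14 were tested. In newborn against adult rats 9 were called lower and 1 higher, with a median log2 change of −0.69, and against old rats 11 were lower and 0 higher, with a median of −1.17. Of all probes 26.2% were lower and 39.6% higher against adult rats, and 31.7% were lower and 27.7% higher against old rats. With quantile normalization 11 were lower and 1 higher against adult rats and 12 lower against old rats. In adult against old rats 6 of the 14 were lower with array median scaling, where 31.6% of all probes were lower and 15.3% higher. With quantile normalization 2 were lower and 2 higher.

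Ric8b, an exchange factor that acts on Golf, had means of 1.31 in newborn litters, 4.15 in adult and 3.95 in old rats, and log2 changes of −2.84 (adjusted p = 6.92e-13, limma) and −2.64 against adult and old rats. Pde4a, a cAMP phosphodiesterase, changed by −2.48 and −2.42. Stoml3, a stomatin-like protein of olfactory cilia, changed by −2.25 and −3.41 and was lower in adult than in old rats by −1.17. Rtp1, which helps receptors to reach the membrane, changed by −1.85 and −1.57. The chloride uptake carrier Slc12a2 changed by −0.97 and −1.05, the calcium exchanger Slc24a4 by −0.69 and −1.83, and the kinase Camk2a by −0.69 and −1.25. Arrb2, an arrestin that ends receptor signalling, was the gene of the list called higher, with a log2 change of 0.59 against adult rats.

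Paralogs of the members, many of which serve other cells or other stages, were also counted. Of 30 genes, 29 had a probe and 24 were tested. Against adult rats 11 were called higher in newborn rats and 3 lower (9 and 3 with quantile normalization), and against old rats 8 higher and 4 lower. Over all probes 39.6% were higher and 26.2% lower against adult rats, and 27.7% higher and 31.7% lower against old rats, so the paralogs called higher were near the shares of all probes. Gnas, the alpha subunit of Gs that is close to Gnal, had means of 4.57 in newborn litters (SD 0.41), 1.95 in adult (SD 0.22) and 2.09 in old rats (SD 0.13), and log2 changes of 2.62 (adjusted p = 7.89e-17, limma) and 2.48. Among G protein gamma subunits, Gng3 changed by 2.14 and 1.81, Gng8, known from immature olfactory neurons, by 1.02 and 1.51 (0.43 against adult rats with quantile normalization, adjusted p = 0.0129, not called), Gng11 by 0.99 and 1.41, and Gng12 by 1.19 against adult rats. Among adenylyl cyclases, Adcy2 changed by 1.18 and 0.71 and Adcy6 by 0.92 and 0.23. Gnat3, the gustatory alpha subunit, was lower in newborn rats, by −1.03 and −0.72.

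Of 6 genes of the guanylyl cyclase neurons, the class to which Cnga3 belongs, 3 were tested. Carbonic anhydrase Car2 (log2 changes 1.38 and 0.86) and the phosphodiesterase Pde2a (0.74 and 0.86) were higher in newborn than in adult and old rats. Both are also made by other cells. The defining cyclase Gucy2d had changes of 0.10 and −0.16, which were not called.

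**Figure D5:**
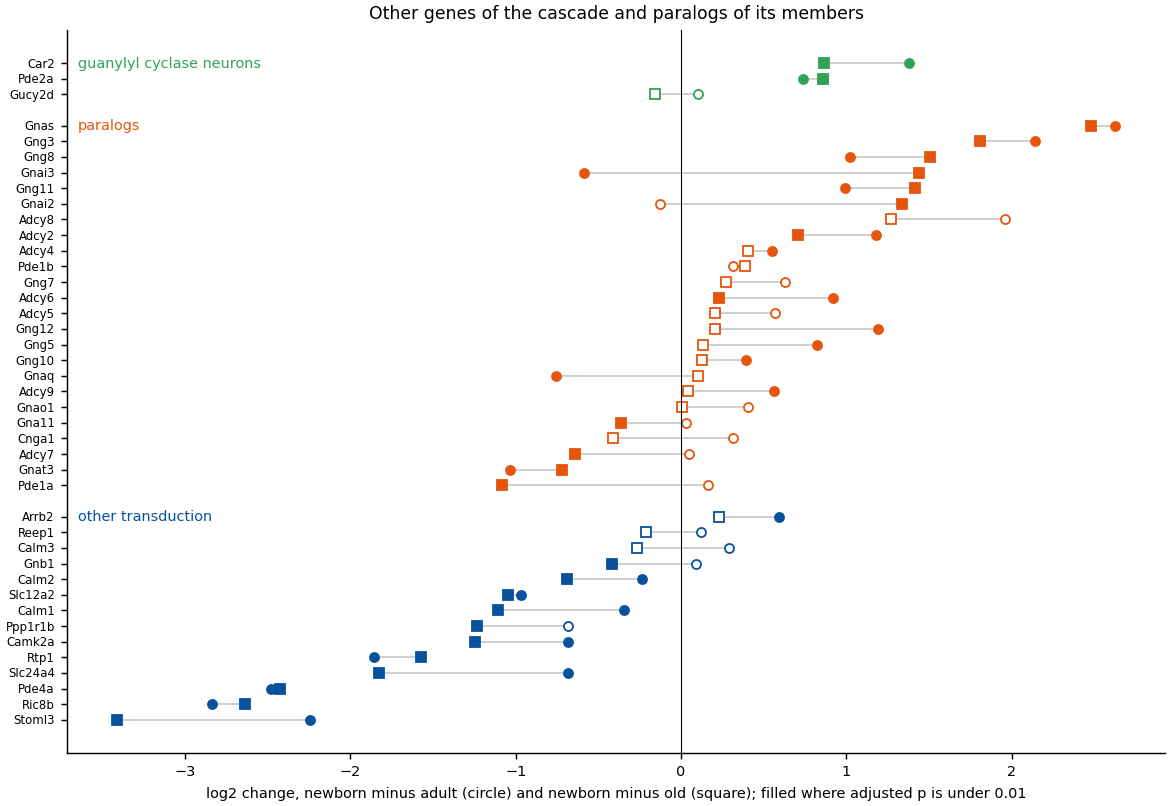
Log2 change in newborn minus adult rats (circles) and newborn minus old rats (squares) of the tested genes of 3 lists (y axis), filled where the adjusted p of limma was under 0.01. Stoml3, Ric8b and Pde4a lie below −2 in both comparisons, and Gnas lies above 2 in both.

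Markers of other cells moved with the same comparisons, in which 39.6% of all probes were higher and 26.2% lower in newborn than in adult rats. The markers of mature sensory neurons were lower in newborn rats in 9 of 9 genes tested. All of these but Rtp1 and Stoml3 are members of the cascade, and those genes are given above, so the count adds nothing of its own. The sums were 8.24 to 9.59 in the pups, 10.7 to 11.0 in adult and 11.2 to 11.6 in old rats. Of the markers of globose basal cells, the dividing progenitors, 7 of 7 tested were called higher in newborn rats. Their summed level ran from 9.24 to 10.1 in the pups, from 7.65 to 7.94 in adult and from 7.96 to 8.16 in old rats (log2). The sum is mostly that of the brightest marker, Hes6, with means of 7.36 in adult and 7.83 in old rats. Gene by gene 4 were called higher in adult than in old rats and 0 lower, with a median log2 change of 0.95. Of all probes 15.3% were higher and 31.6% lower in adult than in old rats. Kit, a marker of the same cells, was not expressed in common. Of those of immature sensory neurons, 8 of 11 were higher and 1 lower against adult rats, but 5 were higher and 2 lower with quantile normalization, and the median log2 change of 0.78 became 0.18. Their sums were 11.0 to 11.9, 10.7 to 11.0 and 10.4 to 10.7. Of those of sustentacular cells, 5 of 5 tested were lower, with sums of 9.71 to 11.0, 11.5 to 11.8 and 12.1 to 12.3. Cyp1a2 and Gsta2, markers of the same cells, were not expressed in common. Cyp1a2 had means of 3.97 in newborn litters and 8.06 in adult rats, and Gsta2 −1.36 and −2.99. Muscle markers were summed to 5.29 to 9.09 in the pups, 3.87 to 4.69 in adult and 5.55 to 6.19 in old rats, and Myh3, the embryonic myosin, had a mean of 5.59 in litters and −1.54 in adult rats. The part that these cells had in the changes of the cascade was not tested.

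The genes whose pattern over the 27 rats was most like that of Omp probe 1, outside the members, were named by Pearson r as a description. They were Or9k2, an olfactory receptor that the array names Olr1070 (r = 0.987), Abhd12 (0.985), Tom1 (0.985), Or2ak6e, a receptor named Olr1434 (0.981), Acsl1 (0.980), Tst (0.979), Cyp27a1 (0.979) and Drd2 (0.978). The median r over 23666 probes was 0.03, and 3.09% exceeded 0.9. Of the members, Cnga4 had 0.965, Cnga2 0.958, Gnal probe 1 0.945 and Adcy3 0.929, and Cngb1 probe 2 had −0.58. Among the pups centred on their litter, those most alike included Pou2f3 (0.980), Myo7a (0.974), Slc14a2 (0.969) and Dcxr (0.968). Rats of 1 age share the offset of their age, and each value shares the scaling of its array.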

How the data were processed

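Olfactory epithelium RNA of 27 rats, grouped by litter and age as per the labels, had been hybridized to 35 one-dye Agilent arrays. The authors deposited the Feature Extraction output (version 9.5.1.1 for the 8 adult arrays, 9.5.3.1 for the others), where the intensity of a spot has its background subtracted, may fall below 0 and has no normalization across arrays. A matrix of ratio values, also deposited, had been divided by the median of each array and by a constant of each gene, and served only for an alternative fit. Of the 16402 probes compared, 99.99% had 1 constant over the arrays (SD of log2 under 0.1).

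Control spots were left out, spots of a repeated probe were averaged without 5184 outlier values, and intensities were scaled to the array median. Values under 0.01 were set to 0.01 before log2. A spot counted as above background when the scanner software flagged it as such and as uniform, and not as saturated. A probe was tested when this held on 3 arrays of each litter and 6 of the 8 arrays of adult and old rats. Levels were fitted with limma 3.58.1 in R 4.3.3 over 6 groups, newborn being the mean of the 4 litters, and p values were adjusted by Benjamini-Hochberg over 23668 probes. The fit was tested on simulated data. Ratios to Omp had exact permutation tests and correlations 100000 permutations, with Python 3.11.15. The rat, slide and scan day were random blocks in alternatives (correlations 0.58, 0.22 and 0.25). The number of arrays limits the precision.

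The members and gene lists were chosen with earlier results of these data known. The genes named were every probe of the members, up to 8 called genes of each pathway list with the largest change against adult rats, the 8 and 5 genes most like Omp (of which 1 is not reported here), and the control genes Hprt and Gapdh. Marker lists were also kept for other cells. Gene symbols are those of the arrays or, for 10861 probes, those RefSeq pairs with the accession.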

Additional observations from a re-analysis of the deposited data

Results flagged for a closer look

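Of 78 sets of litter, adult or old values of the member probes that were checked, 3 held a rat far from the others, where chance gives about 1 in 20. At Omp probe 1, L3 rat 30 was the lowest of its litter at 9.83, with the next pup at 10.48. The same pup was lowest in L3 at S100a5, at 6.997 against 7.70 for the next. For Adcy3, L4 rat 32 was lowest in its litter at 3.87, against 4.30 for the next.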

How the results depend on the processing

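With a fold of at least 5 required, 5 probes were called in newborn against adult rats, 5 against old rats and 0 between adult and old rats. In adult against old rats 3 probes were called with array median scaling, and 1 with the 75th percentile, normexp followed by quantile normalization, the slide or the scan day as a random block, no filter on dim probes or the methods' t-test, and 0 with quantile normalization. Leaving out 1 rat gave 1 to 3 calls there, with 1 call without adult rat 14, adult rat 16, old rat 18 or old rat 20. It gave 13 to 13 calls in newborn against adult and against old rats, and 2 to 7 among litters, with 7 without L1 rat 10. In adult against old rats the direction turned with quantile normalization, and with normexp followed by it, for Gnal probe 1 (0.37 and 0.35), Gnal probe 2 (0.22 and 0.11), Adcy3 (0.20 and 0.20), Cnga2 (0.15 and 0.33) and S100a5 (0.26 and 0.23), none of them called. Gnal probe 3 ran from −0.0342 to 0.14 when 1 rat was left out, and turned without adult rat 13 (−0.0342) or 15 (−0.001). With every probe of a gene set against Omp, 10 of 11 ratios passed in newborn against adult rats (Cngb1 probe 2 as higher, by 2.004). Against old rats 5 of 11 passed, and between adult and old rats 11 of 11. In the last of these the median of all tested probes changed by −0.19 and Omp probe 1 by −1.06. The cause was not tested. No paired analysis was possible because the groups share no replicate numbers. No other count of called member probes moved by over 1.5 times. Among lists, with quantile normalization the immature neuron markers higher against adult rats went from 8 to 5, and the other transduction genes lower in adult than in old rats from 6 to 2. The 12 calls in L1 against old rats were also 12 with quantile normalization, chosen after seeing the data. Of the alternatives for single probes, 677 kept direction and call, 20 lost a call, 4 gained one and 10 turned. Of those that left out 1 rat, 1384 kept both, 12 lost a call, 6 gained one and 2 turned. Brightness limits Cnga3, at or below background, and Pde1c probe 2 in the pups.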
